A study of Mus musculus with 8 samples.

Results

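The genes described are 10 immune checkpoint receptors and ligands: Cd274, Pdcd1lg2, Pdcd1, Ctla4, Lag3, Tigit, Havcr2, Lgals9, Cd47 and Sirpa. They were picked by gene symbol, and 10 of 10 were found among the 55414 genes of the count table. RNA from mouse supratentorial ependymoma, a brain tumor driven here by a fusion of Zfta with Rela, and from naive brain was sequenced in 8 libraries. The genotype field reads ZFTA-RELAfusion for every library, naive brain included, and the drug name stands in the cell line field of every library. Mice whose tumors had been seen by MRI were randomised to vehicle or to 50 mg/kg of MRX-2843, a small molecule that blocks the kinases MERTK and FLT3. Dosing was once a day for 5 days, and the brains were taken 1 hour after the last dose. The 4 groups, with 2 libraries each, were vehicle naive, vehicle tumor, MRX-2843 naive and MRX-2843 tumor. Strain, age, the cells that carry the fusion and whether naive brain came from tumor-bearing mice are not stated in the labels.

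Checkpoint receptors are brakes on immune cells. On T cells PD-1 (the product of Pdcd1), CTLA-4, TIGIT, LAG-3 and TIM-3 (Havcr2) lower activation when they bind ligands on other cells, among them PD-L1 (Cd274), PD-L2 (Pdcd1lg2) and galectin-9 (Lgals9). A separate brake acts on phagocytes: CD47, carried by most cells, binds SIRP-alpha on myeloid cells and holds back engulfment. In brain, microglia also carry TIM-3 and SIRP-alpha, and neurons are a source of Sirpa and Cd47 RNA.

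Some facts on the libraries come before the results. Totals ran from 51150569 to 112938462 counts, and levels are given in CPM, counts scaled by the library total, here after TMM adjustment. Where a library had 0 counts, its level could still be as high as 6 counts (3 read pairs if both mates were counted), or 0.0562 to 0.123 CPM, by counting error alone. The vehicle tumor libraries were low in neuron RNA, with 7 neuron markers summing to 333 and 337 CPM against 5910 and 5770 in vehicle naive, and high in leukocyte RNA, with Ptprc (CD45) at 57.2 and 54.4 CPM against 2.15 and 2.50. The libraries labelled MRX-2843 tumor stood with naive brain on both, at 3070 and 3040 CPM for the neuron markers and 3.06 and 3.95 CPM for Ptprc. Rela, a partner in the driving fusion, was at 85.6 ± 0.986 CPM (SD, n = 2) in vehicle tumor and at 30.3 ± 2.55 in the libraries labelled MRX-2843 tumor, beside 25.5 and 25.7 in the naive groups. Xist was at 502 to 771 CPM of unscaled totals in the MRX-2843 libraries and at 0.461 to 2.75 in the vehicle libraries, and the Y-linked Ddx3y had 0 counts in the former and 2168 to 6717 in the latter. A number in the column names, 909 for MRX-2843 and 914 or 915 for vehicle, follows treatment too, so treatment cannot be told apart from it or from the sex-linked difference. The 2 libraries of a group are called duplicates without a word on separate animals, and every p-value below rests on the spread between such duplicates, which may be technical. In bulk tissue, fewer cells of a type and less RNA per cell cannot be told apart.

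Sequence is shown for the 2 ligand genes with the largest rises in vehicle tumor, Lgals9 and Cd274, both known to respond to interferon. The stretch runs from 250 bases before the RefSeq start site to 30 bases after it (GRCm38.p6), 5′ to 3′ along the gene. It covers chr11:78984895-78985174 (minus strand) for Lgals9 and chr19:29367188-29367467 (plus strand) for Cd274. Capitals mark matches, on either strand, to GAAA, any 2 bases and GAAA again, the core of the element bound by interferon-regulated factors.
Lgals9: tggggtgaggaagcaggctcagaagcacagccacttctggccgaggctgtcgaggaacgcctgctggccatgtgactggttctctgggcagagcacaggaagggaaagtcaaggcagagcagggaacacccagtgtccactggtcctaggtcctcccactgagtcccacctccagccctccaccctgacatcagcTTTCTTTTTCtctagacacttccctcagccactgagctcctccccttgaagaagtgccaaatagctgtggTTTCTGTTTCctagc
Cd274: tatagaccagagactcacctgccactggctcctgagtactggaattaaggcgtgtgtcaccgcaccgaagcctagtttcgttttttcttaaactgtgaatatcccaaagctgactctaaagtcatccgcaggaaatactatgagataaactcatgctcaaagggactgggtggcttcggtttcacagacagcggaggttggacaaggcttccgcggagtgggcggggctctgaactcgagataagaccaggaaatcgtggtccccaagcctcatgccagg
The Lgals9 matches read TTTCTTTTTC and TTTCTGTTTC on the printed strand and begin at positions -55 and 16 from the start site. That motif was present in 3.28% of 32851 mouse promoters of the same 280 bases. The interferon-gamma activated form TTCNNNGAA, in 7.83% of promoters, and the NF-kB form GGGA, any base and TTTCC, in 0.39%, matched none of the members on either strand. RefSeq promoters were at hand for 8 of the 10 members, Lag3 and Sirpa being the others, and Lgals9 alone among the 8 held any match. These are letter matches in a short window, not sites shown to be bound.

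In vehicle tumor against vehicle naive brain, RNA of the ligand genes Lgals9 and Cd274 and of the receptor genes Lag3, Havcr2 and Pdcd1 was higher, and RNA of the phagocytosis brake, Cd47 and Sirpa, was lower. Of the 10 members 5 rose, 2 fell and 3 did not pass (edgeR quasi-likelihood test, Benjamini-Hochberg adjusted p under 0.05 over all genes). Of all 24356 genes tested 60.1% passed, 29.3% upward and 30.8% downward, so passing is itself near the background here. The median log2 fold change was 3.12 over the members and -0.03 over all genes tested. All 10 members passed the filter on low counts, but Pdcd1lg2 and Tigit reached its minimum of 10 counts in both libraries of vehicle tumor only. With library totals in place of TMM scaling, 58.4% of all calls in this comparison were upward, against 48.7%.

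**Figure D1:**
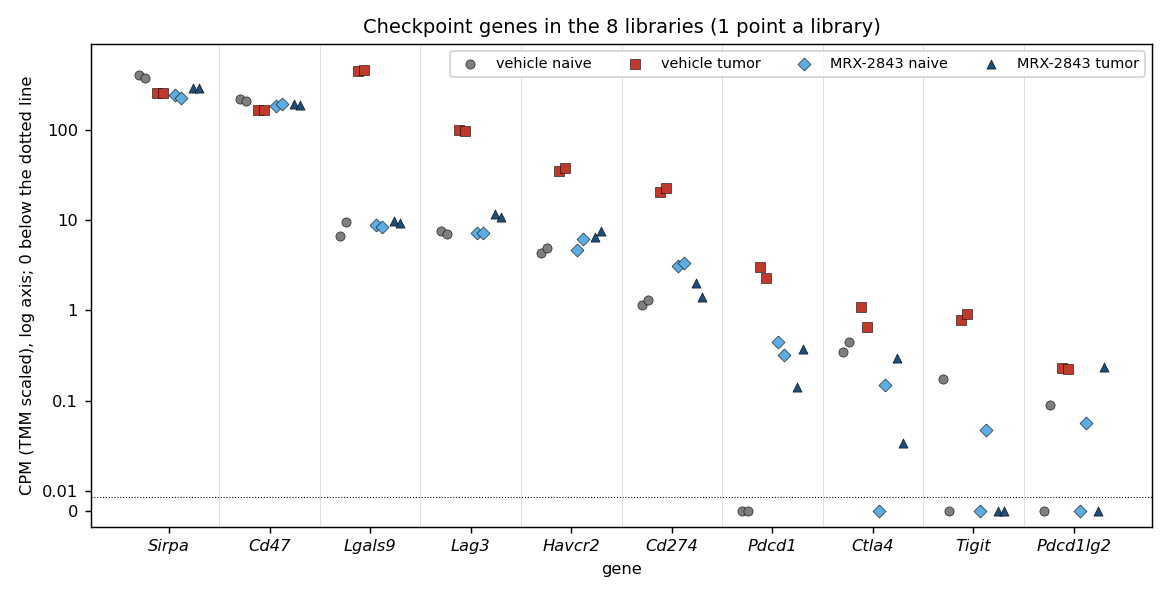
TMM-scaled CPM on a log axis for the 10 checkpoint genes, 1 point a library, coloured by group, with values of 0 drawn below the dotted line. The vehicle tumor points of Lgals9, Lag3, Havcr2, Cd274 and Pdcd1 lie above all others, and those of Sirpa and Cd47 lie in or under the range of the other groups.

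Among the genes of checkpoint receptors known on T cells, Pdcd1 (chr1:94038305-94052553) encodes PD-1. It had 0 counts in both vehicle naive libraries and 260 and 203 counts in vehicle tumor, which is at least 60.4-fold higher when vehicle naive is set at 6 counts over the group (adjusted p = 4.2e-06). In the MRX-2843 libraries it had 22 and 34 counts in naive brain and 8 and 22 in those labelled tumor. Both vehicle tumor libraries were therefore above all 6 others.

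Lag3 (chr6:124904361-124911705), whose product competes with CD4 for MHC class II, had the most RNA per length of these 5 checkpoint receptor genes in every group. Its level was 7.55 and 7.06 CPM in vehicle naive, 99.8 and 97.7 in vehicle tumor, 7.22 and 7.27 in MRX-2843 naive, and 11.6 and 10.9 in MRX-2843 tumor. Vehicle tumor stood above vehicle naive by 3.76 ± 0.10 on the log2 scale (SE; adjusted p = 7.8e-14). The libraries labelled MRX-2843 tumor stood above all 4 naive libraries as well.

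Havcr2 (chr11:46454935-46481255), the TIM-3 gene, was at 4.35 and 4.95 CPM in vehicle naive and 35.1 and 38.4 in vehicle tumor. It was at 4.64 and 6.26 CPM in MRX-2843 naive and 6.51 and 7.62 in MRX-2843 tumor. The rise in vehicle tumor was 2.98 ± 0.17 (log2, SE; adjusted p = 6.7e-10), with no overlap between the groups.

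Ctla4 (chr1:60887000-60915832) and Tigit (chr16:43648867-43664146) were scarce. Ctla4, whose product takes CD80 and CD86 away from the activating receptor CD28, had 24 and 30 counts in vehicle naive, 94 and 58 in vehicle tumor, 0 and 16 in MRX-2843 naive, and 17 and 2 in MRX-2843 tumor. Vehicle tumor lay above vehicle naive in both libraries, yet the test did not pass (1.14 ± 1.18 on the log2 scale, adjusted p = 0.43). The annotation places the pseudogene Rpl18-ps1, with 62 to 334 counts, on the same strand within Ctla4, and reads of the pair cannot be told apart from these files. Tigit, a receptor for the nectin-like ligand PVR, had 12 and 0 counts in vehicle naive, 68 and 80 in vehicle tumor, 0 and 5 in MRX-2843 naive, and 0 in both libraries labelled MRX-2843 tumor. For Tigit the rise in vehicle tumor missed the threshold (3.27 ± 1.59, adjusted p = 0.093). It passed with no filter (adjusted p = 0.048), with only these 2 groups in the fit (0.031), and with counts halved (0.022). Tigit entered the filtered fits only through vehicle tumor, so its calls there are not independent of the filter. Without the first vehicle naive library, which held the 12 counts, vehicle naive was left at 0 and the fitted value was 8.96.

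Among the ligand genes, Lgals9 (chr11:78962974-78984946) encodes galectin-9, a ligand of TIM-3. It was at 6.66 and 9.58 CPM in vehicle naive, 446 and 465 in vehicle tumor, 8.94 and 8.40 in MRX-2843 naive, and 9.74 and 9.31 in MRX-2843 tumor. Its rise in vehicle tumor, 5.81 ± 0.12 on the log2 scale (adjusted p = 5.9e-15), was 56.1-fold in mean CPM. The 6 other libraries lay between 6.66 and 9.74 CPM.

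Cd274 (chr19:29367455-29388095), the PD-L1 gene, was at 1.15 and 1.31 CPM in vehicle naive and 20.7 and 22.6 in vehicle tumor. It was at 3.08 and 3.36 CPM in MRX-2843 naive and 2.04 and 1.40 in MRX-2843 tumor. The 4 groups did not overlap, and the rise in vehicle tumor was 4.14 ± 0.24 (log2, SE; adjusted p = 5.8e-10). The annotation has an antisense gene, AC119228.1, across Cd274, and the strand setting of the counting is not stated.

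Pdcd1lg2 (chr19:29410919-29471161), the PD-L2 gene, begins 22823 bases after the end of Cd274. It had 0 and 6 counts in vehicle naive, 20 and 20 in vehicle tumor, 0 and 6 in MRX-2843 naive, and 0 and 14 in MRX-2843 tumor. No comparison passed, with 2.32 ± 2.18 (log2, SE; adjusted p = 0.38) for vehicle tumor against vehicle naive. At this depth a difference was not detectable, and an antisense gene, A930007I19Rik, lies across it with 24 to 114 counts.

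RNA of the genes of the brake on phagocytes moved the other way. The neuron marker sum was lower too, at 333 and 337 CPM in vehicle tumor against 5910 and 5770 in vehicle naive, and its part was not tested. Cd47 (chr16:49800533-49915010) was at 221 and 209 CPM in vehicle naive, 166 and 166 in vehicle tumor, 183 and 193 in MRX-2843 naive, and 194 and 189 in MRX-2843 tumor. It fell by 0.37 ± 0.05 on the log2 scale in vehicle tumor (adjusted p = 2.7e-05), but with library totals in place of TMM scaling the change was -0.12 with an adjusted p of 0.067. Sirpa (chr2:129592835-129632228) was at 404 and 375 CPM in vehicle naive, 257 and 260 in vehicle tumor, 247 and 227 in MRX-2843 naive, and 290 and 289 in MRX-2843 tumor. It fell by 0.59 ± 0.06 in vehicle tumor (log2, SE; adjusted p = 2.3e-07), so vehicle naive held the most Sirpa RNA of the 4 groups. Its close relatives Sirpb1a, Sirpb1b and Sirpb1c had 0 to 96 counts in any library.

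Per kilobase of exon, which allows genes to be compared, the order of the members differed between groups. In vehicle naive Sirpa led with 79.3 ± 4.15 CPM per kb (SD, n = 2) before Cd47 with 34.3 ± 1.34. Lgals9 (3.80 ± 0.966) and Lag3 (3.46 ± 0.164) followed within each other's spread, then Havcr2 (1.71 ± 0.155) and Cd274 (0.34 ± 0.0318). In vehicle tumor Lgals9 led with 213 ± 6.01 CPM per kb, then came Sirpa (52.7 ± 0.413), Lag3 (46.8 ± 0.696), Cd47 (26.5 ± 0.0284), Havcr2 (13.5 ± 0.866) and Cd274 (5.99 ± 0.371), each beyond the spread of the next. Pdcd1 (1.38 ± 0.258), Tigit (0.922 ± 0.0933), Ctla4 (0.374 ± 0.13) and Pdcd1lg2 (0.117 ± 0.00157) closed that order. In the libraries labelled MRX-2843 tumor, Sirpa (58.9 ± 0.0934) and Cd47 (30.5 ± 0.598) led again, before Lag3 (5.34 ± 0.256), Lgals9 (4.46 ± 0.143) and Havcr2 (2.60 ± 0.29). MRX-2843 naive had the order of vehicle naive for its first 6 genes. The ratio of Sirpa to Cd47 per kb was 2.33 and 2.29 in vehicle naive, 1.98 and 2.00 in vehicle tumor, 1.73 and 1.50 in MRX-2843 naive, and 1.90 and 1.95 in MRX-2843 tumor.

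Markers of immune and other cells also differed between vehicle tumor and vehicle naive. Over all genes tested, 29.3% were higher in vehicle tumor than in vehicle naive and 30.8% lower. The 8 microglia markers, which all rose, summed to 260 and 260 CPM in vehicle naive and to 1830 and 1880 in vehicle tumor, with none at 0. They summed to 259 and 252 CPM in MRX-2843 naive and 343 and 345 in MRX-2843 tumor. The macrophage and monocyte sum (8 of 8 higher in vehicle tumor) was 21.8 and 24.6 CPM in vehicle naive and 379 and 394 in vehicle tumor, and 23.9 to 27.2 in the MRX-2843 libraries. The T cell sum (9 of 11 higher) was 8.58 and 8.48 CPM in vehicle naive and 31.7 and 35.3 in vehicle tumor, with Cd3d and Cd3g at 0 counts in vehicle naive and Cd3d and Cd3e at 0 in the libraries labelled MRX-2843 tumor. Trbc2, a T cell receptor constant region, gave 5.50 and 5.10 CPM of the vehicle naive sum and 4.76 and 5.06 of the 8.12 and 7.83 CPM in MRX-2843 tumor, but 0.287 and 0.0937 CPM in MRX-2843 naive. The NK cell sum (6 of 6 higher) was 0.287 and 0.223 CPM in vehicle naive and 11.3 and 10.8 in vehicle tumor. The B cell sum (4 of 5 higher) was 1.23 and 0.775 CPM in vehicle naive and 6.59 and 5.24 in vehicle tumor. The dendritic cell sum was 18 and 16.1 CPM in vehicle naive and 51.9 and 52.0 in vehicle tumor, with 4 of 7 markers higher, Zbtb46 lower and 2 not passing, of which Batf3 had means of 3.42 and 3.28 CPM. Endothelial markers rose as well, 6 of 6, from a sum of 128 and 138 CPM to 418 and 403. All 7 neuron markers and all 6 oligodendrocyte markers were lower, the latter falling from 7320 and 7260 CPM to 430 and 449. The part of these cell types in the members' changes was not tested.

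Set against the microglia sum, the members divided. Havcr2 was 1.67% and 1.90% of it in vehicle naive, 1.91% and 2.04% in vehicle tumor, 1.79% and 2.49% in MRX-2843 naive, and 1.89% and 2.21% in MRX-2843 tumor, so the vehicle groups lay side by side without overlap and both MRX-2843 groups overlapped each of them. Lag3 went from 2.90% and 2.71% in vehicle naive to 5.44% and 5.19% in vehicle tumor. Lgals9 went from 2.56% and 3.68% to 24.3% and 24.7%, and Cd274 from 0.441% and 0.504% to 1.13% and 1.20%. In MRX-2843 naive Cd274 was at 1.19% and 1.34%, which overlaps vehicle tumor. Sirpa took the opposite course, from 155% and 144% of the microglia sum in vehicle naive to 14.0% and 13.8% in vehicle tumor. Set against Ptprc instead, Cd274 fell from 53.3% and 52.4% in vehicle naive to 36.3% and 41.6% in vehicle tumor. On that scale Lag3 fell from 351% and 282% to 175% and 180%, and Havcr2 from 202% and 198% to 61.4% and 70.6%. Lgals9 still rose, from 309% and 383% of Ptprc to 781% and 854%. Against the T cell sum, Pdcd1 was at 9.49% and 6.53% in vehicle tumor, at 11.2% and 5.98% in MRX-2843 naive, and at 1.73% and 4.74% in MRX-2843 tumor. Without Trbc2 these shares were 10.8% and 7.78%, 12.1% and 6.08%, and 4.19% and 13.4%, so that the 3 groups overlapped. Lag3 was at 88.0% and 83.3% of the T cell sum in vehicle naive and at 315% and 277% in vehicle tumor. These shares describe RNA in whole tissue and do not place a member in a cell type.

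**Figure D2:**
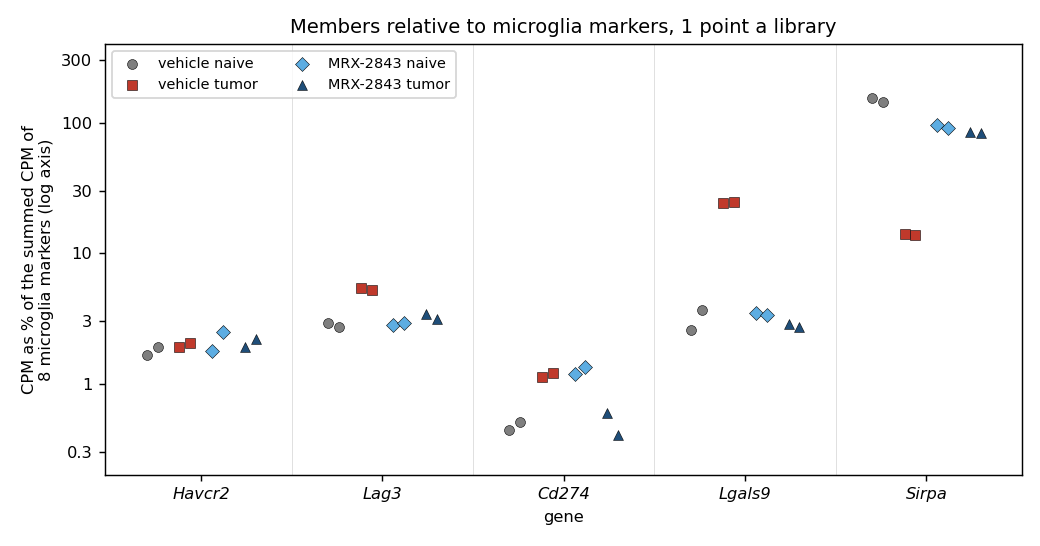
CPM of 5 members as a percentage of the summed CPM of 8 microglia markers, on a log axis, 1 point a library. Havcr2 sits near 2% in all groups, Lgals9 reaches 24.3% and 24.7% in vehicle tumor against 2.56% to 3.68% elsewhere, and Sirpa drops to 14.0% and 13.8% there.

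Partner genes of the members, the ligands, competing receptors and signalling phosphatases around them, were higher in vehicle tumor in 9 of 14 and lower in none, with a median of 1.48 (log2). Over all genes tested in this comparison, 60.1% passed, 29.3% upward and 30.8% downward. Thbs1, a CD47 ligand, rose from 1.15 and 0.998 CPM to 79.6 and 88.1 (6.28 ± 0.35, adjusted p = 3.9e-10). Ptpn6, the phosphatase SHP-1 that several of these receptors recruit, rose from 3.29 and 3.62 CPM to 52.7 and 52.9 (3.93 ± 0.16, adjusted p = 7.3e-12). Its relative Ptpn11 (SHP-2) was at 149 and 143 CPM in vehicle naive against 135 and 134 in vehicle tumor and did not pass (-0.12, adjusted p = 0.08). With library totals its difference turned to 0.14 and passed (adjusted p = 0.043), and with the stricter filter it passed as lower (-0.13, 0.047). The ligands shared by CD28 and CTLA-4 both rose, Cd86 by 3.58 ± 0.25 (adjusted p = 7.3e-09) and Cd80 by 2.77 ± 0.58 (0.00071), while Cd28 itself did not pass (0.64), its difference running from -0.26 to 2.82 as single libraries were left out. Of the TIGIT ligand genes, Nectin2 rose by 2.31 ± 0.16 (adjusted p = 7.3e-09), Nectin3 by 1.27 ± 0.14 (1.1e-06) and Pvr by 0.43 ± 0.16 (0.029). Cd226, the activating receptor for the ligands PVR and nectin-2, rose by 3.19 ± 1.21 (adjusted p = 0.035), and Cd96 did not pass (0.32). The calls of Pvr and Cd226 depended on single libraries: leaving out any 1 of the 4 ended the call for Pvr, with adjusted p of 0.059 to 0.12, and leaving out either vehicle naive library or the first vehicle tumor library did so for Cd226, at 0.12, 0.074 and 0.15. Hmgb1, a ligand of TIM-3, rose by 0.88 ± 0.05 (adjusted p = 1.7e-09). Ceacam1 and Fgl1, ligands of TIM-3 and LAG-3, did not pass (0.22 and 0.25), though Ceacam1 did with library totals (0.63, adjusted p = 0.042).

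Of 25 other checkpoint and costimulation genes, 22 were tested, 13 were higher in vehicle tumor and 2 lower, with a median of 2.76 (log2), or 2.44 with the 3 genes at 0 counts in a group set at their bounds. Over all genes tested, 29.3% were higher and 30.8% lower. Vsir, the gene of the inhibitory molecule VISTA, went from 26.4 and 26.7 CPM to 182 and 188 (2.80 ± 0.08, adjusted p = 2.8e-13). The collagen receptor gene Lair1 rose by 3.04 ± 0.14 (adjusted p = 5e-11), the ICOS ligand gene Icosl by 3.16 ± 0.17 (2.3e-10) and Cd48 by 4.48 ± 0.31 (6.9e-09). Cd276 (B7-H3) rose by 0.80 ± 0.15, from 11.2 and 11.4 CPM to 17.6 and 21.7. Cd200, a neuronal ligand that quiets myeloid cells, fell by 0.66 ± 0.08 (adjusted p = 2.6e-06) and its receptor gene Cd200r1 rose by 2.82 ± 0.75 (0.0046), a call that was lost without the first vehicle tumor library (adjusted p = 0.11). Vtcn1 was the other gene that fell, from 30 and 7 counts to 0 in both vehicle tumor libraries.

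The list for the interferon-gamma route to PD-L1 also held the PD-L1 stabilisers and the NF-kB genes Nfkb1 and Rela. In vehicle tumor 12 of its 14 genes were higher and 1 lower. The median was 2.46 (log2), or 2.16 with Ifng at its lower bound. Irf9 rose by 3.80 ± 0.08 (adjusted p = 5.6e-15), the receptor gene Ifngr1 by 3.06 ± 0.09 (3.4e-13) and Irf1, a direct activator of Cd274, by 4.33 ± 0.14 (9e-13). Jak2 rose by 0.52 ± 0.12 (adjusted p = 0.0016). Ifng itself was at 0 counts in all other groups and at 0.162 and 0.159 CPM in vehicle tumor. It did not pass (adjusted p = 0.087), but did with only these 2 groups in the fit (0.015). Ifng, with 14 counts in each vehicle tumor library, passed the filter on low counts only through that group. Its call in the smaller fit is therefore not independent of the filter. Of the PD-L1 stabilisers, Cmtm6 rose by 2.55 ± 0.11 (adjusted p = 3e-11) and Cmtm4 fell by 1.63 ± 0.09 (5.6e-10). Of 11 regulatory and exhaustion factors of T cells, 7 were higher and 2 lower, with a median of 1.12. Nfatc1 rose by 2.60 ± 0.15 (adjusted p = 9.3e-10) and Prdm1 by 3.28 ± 0.50 (3.8e-05). Tox and Tox2, known in exhausted T cells but also present in brain, fell by 2.61 ± 0.16 (adjusted p = 1.1e-09) and 2.77 ± 0.15 (3.5e-10). The median over all genes tested was -0.03, with 29.3% of them higher in vehicle tumor and 30.8% lower.

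**Figure D3:**
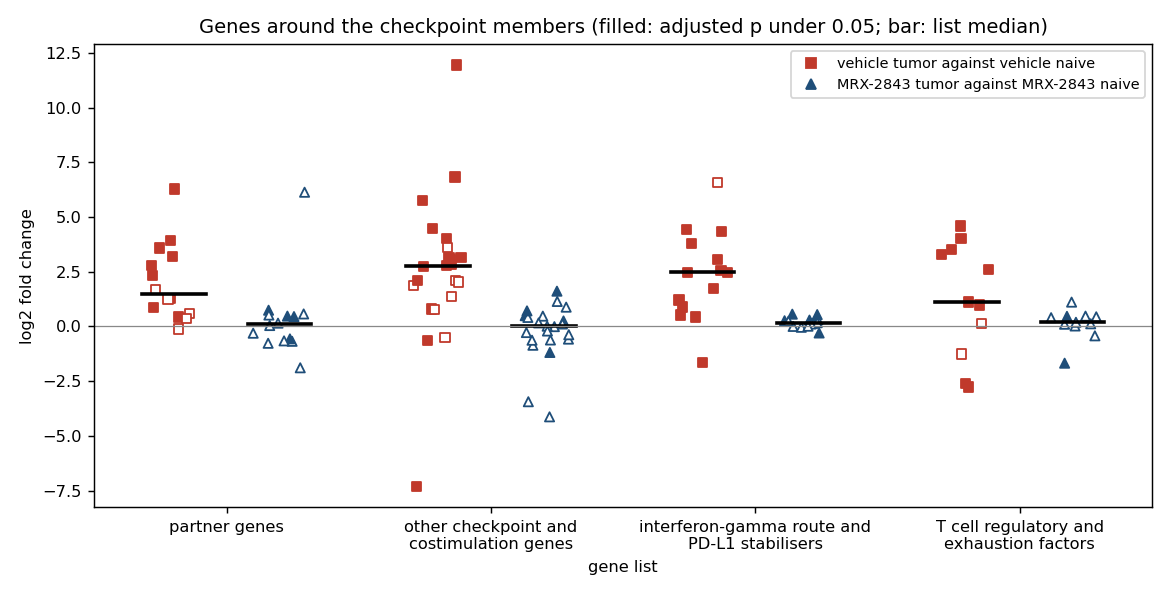
Log2 fold changes of the genes of 4 lists around the members, tumor against naive brain, squares for vehicle and triangles for MRX-2843, filled where adjusted p was under 0.05, with a bar at each list's median. The vehicle medians are 1.48, 2.76, 2.46 and 1.12, the MRX-2843 medians lie between 0 and 0.19, and values beyond 6 in size mostly belong to genes with 0 counts in a group, whose fitted values depend on the prior count.

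In the MRX-2843 libraries, those labelled tumor differed from naive brain in few members. Lag3 and Sirpa were higher, Cd274 was lower, and 7 members did not pass, where 24.4% of all genes did, 12.4% upward and 11.9% downward. The count of 3 of 10 is near that background, and the members' median was 0.22 (log2) against 0 over all genes. Lag3 was higher by 0.63 ± 0.10 (adjusted p = 0.00024) and Sirpa by 0.29 ± 0.06 (0.0015). Cd274 fell by 0.91 ± 0.22 (adjusted p = 0.0078). The Cd274 call was lost when only these 2 groups were fitted (adjusted p = 0.05), and also when the second MRX-2843 tumor library was left out (-0.66, adjusted p = 0.088). Ptprc was at 4.25 and 5.12 CPM in MRX-2843 naive and 3.06 and 3.95 in MRX-2843 tumor, lower like Cd274 (-0.43, adjusted p = 0.072), and its part in that result was not tested. The Ptprc difference passed with no filter (adjusted p = 0.046) and without the first MRX-2843 naive (0.04) or the second MRX-2843 tumor library (0.029). Havcr2 was at 0.36 ± 0.17 (adjusted p = 0.15) and Lgals9 at 0.14 (0.48). Havcr2 passed without the second MRX-2843 naive library (0.61, adjusted p = 0.039). In the 4 lists, 3, 4, 4 and 1 genes were higher and 1 in each list lower, among partner genes, other checkpoint genes, the interferon-gamma route and T cell factors in that order. Among them, Nectin3 rose by 0.74 ± 0.14 (adjusted p = 0.0013), Ptpn11 by 0.45 ± 0.05 (2.7e-05), Lair1 by 0.71 ± 0.14 (0.0016) and Cmtm6 by 0.56 ± 0.11 (0.0018). Cd200 fell by 1.19 ± 0.08 (adjusted p = 8.5e-08) and Tox2 by 1.68 ± 0.14 (6.4e-07). Cell type markers moved in this comparison too: 7 of 8 microglia markers were higher, and so were all 6 oligodendrocyte markers, whose sum was 7460 and 7380 CPM in MRX-2843 naive and 13700 and 14200 in MRX-2843 tumor. Of the 7 neuron markers 1 was higher, Slc17a7 by 2.40 (log2), and 3 were lower, among them Nefl (-1.11) and Gad1 (-0.86). The part of these cell types in the results was not tested.

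**Figure D4:**
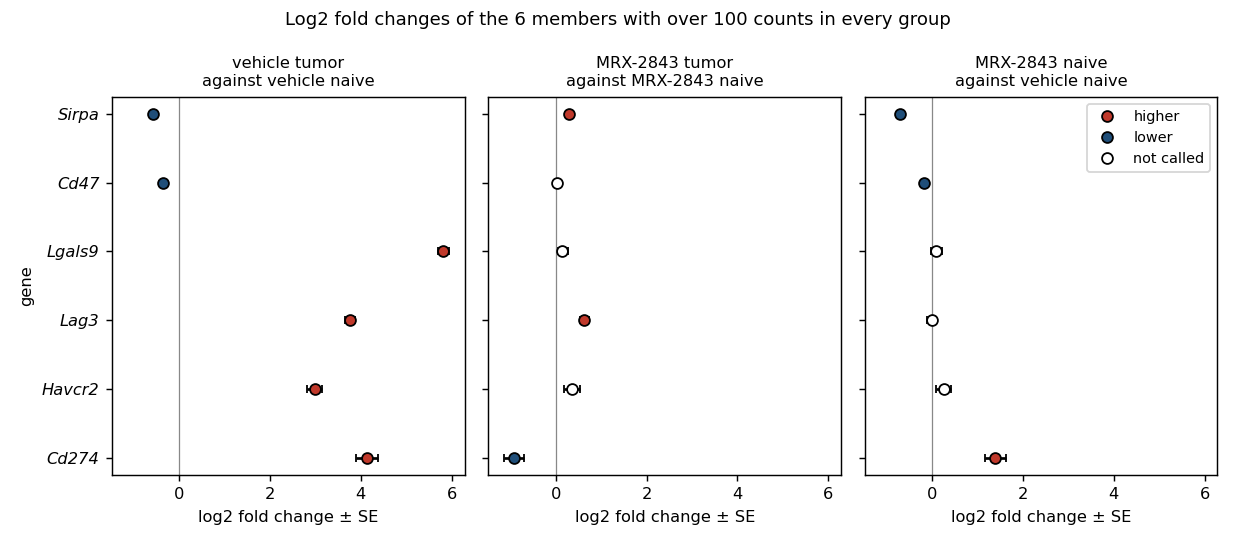
Log2 fold changes with standard errors of the 6 members that had over 100 counts in every group, in 3 comparisons (2 libraries a group), red where higher, blue where lower and white where adjusted p was not under 0.05. Lgals9 is at 5.81 in the vehicle comparison and at 0.14 in the MRX-2843 comparison, and Cd274 is at 4.14 and -0.91.

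The difference between the treatments in tumor against naive brain was tested directly, as the interaction of treatment and tissue. It passed for 7 of 10 members, 5 lower under MRX-2843 and 2, Cd47 and Sirpa, higher, where 51.6% of all genes passed, 26.3% upward and 25.3% downward. For Lgals9 the difference was -5.67 ± 0.17 (log2, SE; adjusted p = 4.6e-13), for Cd274 -5.05 ± 0.32 (3.5e-09), for Lag3 -3.12 ± 0.14 (4.8e-11) and for Havcr2 -2.62 ± 0.24 (1.9e-07). For Sirpa it was 0.88 ± 0.08 (adjusted p = 1.9e-07). For Cd47 it was 0.40 ± 0.08 (adjusted p = 0.00049), and the call was lost with library totals (0.18, adjusted p = 0.058). Tigit had an adjusted p of 0.065, which fell under the threshold with DESeq2 (0.046) and with no filter (0.019). As single libraries were left out, its difference ran from -13.06 to -3.27. Tigit entered the filtered test only through vehicle tumor, so its result there is not independent of the filter.

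Between the tumor groups, 8 of 10 members passed, 2 higher and 6 lower in the libraries labelled MRX-2843 tumor, where 60.4% of all genes did, 30.6% upward and 29.8% downward. This comparison shares the vehicle tumor libraries with the first. Lgals9 was 47.8-fold higher in mean CPM in vehicle tumor, Cd274 12.6-fold, Lag3 8.77-fold and Havcr2 5.20-fold. On the log2 scale they fell by 5.58 ± 0.12, 3.66 ± 0.23, 3.13 ± 0.10 and 2.38 ± 0.17 under MRX-2843, in the same order, with adjusted p of 9.7e-15, 2e-09, 4.8e-13 and 7.5e-09. Pdcd1 fell by 3.36 ± 0.70 (adjusted p = 0.00085), and without the second MRX-2843 tumor library by 4.24. Tigit, with 68 and 80 counts in vehicle tumor and 0 in both MRX-2843 tumor libraries, was at least 16.4-fold lower. It is counted among the 8, but it entered the test only through vehicle tumor, so its call is not independent of the filter. Ctla4 did not pass (-2.38 ± 1.25, adjusted p = 0.11), but did with counts halved (-2.32, adjusted p = 0.05) and when the first MRX-2843 tumor library was left out (-4.63, 0.035). Cd47 and Sirpa passed as higher, by 0.21 ± 0.05 (adjusted p = 0.0044) and 0.16 ± 0.06 (0.022), yet with library totals the differences turned to -0.02 and -0.06. The Sirpa call was also lost without the first vehicle tumor library (adjusted p = 0.075) or either MRX-2843 tumor library (0.067 and 0.096). Of the partner genes 7 of 14 were lower, among them Thbs1 (-6.65 ± 0.36, adjusted p = 3.7e-10) and Ptpn6 (-3.35 ± 0.15, 3.8e-11), and Ptpn11 was higher (0.65 ± 0.05, 6.5e-08). Of the other lists, 12 of 22, 11 of 14 and 4 of 11 genes were lower. As given above, neuron, leukocyte and Rela RNA differed between these 2 groups in the same way as between vehicle tumor and naive brain.

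In naive brain, MRX-2843 against vehicle, 4 of 10 members passed, 2 in each direction, where 21.5% of all genes did, 9.78% upward and 11.7% downward. Cd274 was higher by 1.39 ± 0.23 (log2, SE; adjusted p = 0.00039), 2.62-fold in mean CPM. Pdcd1 was at least 8.21-fold higher, at 22 and 34 counts against 0 and 0 (adjusted p = 0.00071). Ptprc was higher too, by 1.02 ± 0.17 (adjusted p = 0.00037), and its part in these results was not tested, while the microglia sum was 259 and 252 CPM against 260 and 260. The T cell sum was 4.02 and 5.33 CPM in MRX-2843 naive against 8.58 and 8.48, with 1 of 11 markers higher, 1 lower and 9 not passing. Of these sums Trbc2 gave 0.287 and 0.0937 CPM against 5.50 and 5.10. The part of T cells was not tested either. Sirpa fell by 0.72 ± 0.06 (adjusted p = 2.8e-07) and Cd47 by 0.19 ± 0.05 (0.021), and the Cd47 call was lost without the first vehicle naive library (0.22) or the first MRX-2843 naive library (0.14). The neuron marker sum was 2690 and 2770 CPM in MRX-2843 naive against 5910 and 5770 in vehicle naive, but its markers were not of 1 direction, with 5 of 7 lower and 2 higher. Slc17a7 went from a mean of 1680 CPM to 150 and Snap25 from 2180 to 1160, while Gad1 went from 226 to 341 and Nefl from 199 to 239. The part of these markers in the Sirpa result was not tested. Lag3 (-0.01, adjusted p = 0.98), Havcr2 (0.25, 0.37), Lgals9 (0.09, 0.7) and Ctla4 (0.26) did not pass. Leaving out the second MRX-2843 naive library called Ctla4 (-7.76, adjusted p = 0.043), and leaving out the second vehicle naive library called Lgals9 (0.37, adjusted p = 0.017).

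The genes most like each member over the 8 libraries were found by the smallest root mean square difference of gene-centred log2 CPM among 13033 genes. For Havcr2 the nearest was Vsir (0.115), itself a checkpoint gene, then Jag1 (0.122). For Lgals9 they were Oas1b (0.155), of the interferon-induced oligoadenylate synthetase family, and Cd72 (0.187), a B cell surface receptor. For Lag3 they were Msn (0.112), which encodes moesin, and Ticam1 (0.116), the toll-like receptor adaptor TRIF. For Cd274 they were Zfp423 (0.175) and Ntn1 (0.182), which like Cd274 were higher in MRX-2843 naive than in vehicle naive in every library. Among the genes nearest to Sirpa was Zdhhc8 (0.0669), and among those nearest to Cd47 was Tbc1d10b (0.0213). The 4 scarce members had no near neighbour, their smallest distances being 0.71 to 0.809. These distances describe 8 libraries in 4 groups and carry no test.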

How the data were processed

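The authors deposited 1 table of whole-number raw counts, with a row for each gene and a column for each of 8 RNA-seq libraries in 4 groups of 2. Per the submitters' processing notes, STAR 2.7.7a, SAMtools, featureCounts and Subread were used, with the builds hg38 and mm10 named and no role or order given. The strand setting and the annotation release are not given in the sources used here. Counts from 1 to 30 were even numbers in 77.4% to 81.7% of cases and counts above 1000 in 51.6% to 53.9%, as they would be if both mates of a pair were counted, so small counts hold fewer independent fragments than they show.

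The model was edgeR's (version 4.0.16, under R 4.3.3), with TMM scaling and 4 group means (filterByExpr with a minimum count of 10, 4 residual degrees of freedom, biological coefficient of variation 21%). The quasi-likelihood test was adjusted by Benjamini-Hochberg over the 24356 genes that passed the filter, and a gene was called at an adjusted p under 0.05. The script was checked on simulated data. Standard errors (SE) are the log2 fold change divided by the root of the F statistic. CPM values are counts over TMM-scaled library totals. Folds against a group with 0 counts set that group at 6 counts in all, since a read pair may count as 2. Coordinates and exon lengths come from GENCODE M21 (GRCm38), in which 52081 of 55414 identifiers were found without their version, all 10 members included. Promoters are RefSeq's. Tables and plots were made with Python 3.11.15 and its packages matplotlib 3.10.9, NumPy 2.4.6, pandas 2.3.3 and SciPy 1.17.1.

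The members and the gene lists were chosen with earlier results of these data known. Named were the 10 members, their 14 partner genes, a fixed set of other genes of the pathway, up to 4 genes of each other pathway list with the smallest adjusted p in vehicle tumor against vehicle naive, and the 2 nearest genes of each member. A few genes that this rule names are not reported here. The further genes named in the MRX-2843 comparisons and in the closing section were picked after their values were seen. Alternatives were DESeq2's size factors, library totals, the test of DESeq2 1.42.0, a fit on all genes, a filter that asked for 1 CPM or more in 2 libraries, only the 2 groups compared, a replicate block and leaving out each library. Halved counts and a fit without mitochondrially encoded genes (3.26% and 3.37% of counts in vehicle tumor, 14.7% to 18.5% elsewhere) were added after the data were seen. The 2 libraries of each group differed beyond counting noise (chi-square per gene of 4.7 to 9.93).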

Additional observations from a re-analysis of the deposited data

Results flagged for a closer look

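For 7 members the difference between tumor and naive brain itself differed between the treatments (interaction of treatment and tissue, edgeR quasi-likelihood test, adjusted over 24356 genes, with 51.6% of all genes passing). Under MRX-2843 the log2 fold change of tumor against naive brain was lower than under vehicle by the following amounts. The difference was -5.05 ± 0.32 for Cd274, -3.12 ± 0.14 for Lag3, -2.62 ± 0.24 for Havcr2 and -5.67 ± 0.17 for Lgals9. Pdcd1 had a fitted difference of -11.16 ± 1.48 (adjusted p = 1.9e-05), a value that depends on the prior count because vehicle naive held 0 counts. The sign was opposite for Cd47, at 0.40 ± 0.08, and for Sirpa, at 0.88 ± 0.08. In all 7 the vehicle tumor libraries stood apart from vehicle naive, and the libraries labelled MRX-2843 tumor lay nearer to their own naive group than vehicle tumor did to its own.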

How the results depend on the processing

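The number of members called stayed within 6 to 8 for vehicle tumor against vehicle naive, 2 to 4 for MRX-2843 tumor against naive, 6 to 9 between the tumor groups, 3 to 5 between the naive groups and 6 to 8 for the interaction. As reported, 60.1%, 24.4%, 60.4%, 21.5% and 51.6% of all genes tested passed in these comparisons, in that order. Of 815 single-member values under the alternatives, 774 kept direction and call, 13 gained a call, 9 lost one and 19 changed sign. Of 1333 values of other named genes, 1311 kept both, 11 gained a call, 8 lost one and 3 changed sign. The sign changes fell on values that were not called as reported, except that with library totals Cd47 and Sirpa between the tumor groups turned to -0.02 and -0.06. With library totals the uncalled Ptpn11 also turned, to 0.14, in vehicle tumor against vehicle naive. The others came from leaving out a library, over which Cd28 in vehicle tumor against vehicle naive ran from -0.26 to 2.82, and MRX-2843 tumor against naive ran from -4.26 to 6.03 for Pdcd1lg2, -1.27 to 6.51 for Ctla4 and -0.01 to 0.07 for Cd47. Between the tumor groups Pdcd1lg2 ran from -7.13 to 0.04. Between the naive groups the ranges were -4.66 to 4.26 for Pdcd1lg2, -0.06 to 0.04 for Lag3, -5.59 to 4.09 for Tigit, 0.00 to 0.43 for Havcr2 and -0.15 to 0.37 for Lgals9. For the interaction they were -6.60 to 3.71 for Pdcd1lg2 and -2.40 to 5.37 for Ctla4. The cause was not tested.

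Over the alternatives, list counts in the MRX-2843 comparison of tumor and naive brain ran from 2 to 7 (partner genes, 4 as reported), 3 to 5 (other checkpoint genes, 5), 2 to 7 (interferon-gamma route, 5) and 1 to 2 (T cell factors, 2), and between the naive groups from 2 to 5, 1 to 4, 3 to 5 and 2 to 4. Of all genes tested, 24.4% passed in the former comparison as reported and 21.5% in the latter. The stricter filter left some scarce members untested, and DESeq2 gave no adjusted p for some. The replicate numbers did not pair the libraries: deviations of same-numbered libraries correlated at -0.00667 to 0.0176. A fit with the number as a replicate block changed no call among the 129 single-gene values refitted with it and gave 7, 3, 8, 4 and 7 members called in the 5 comparisons. In the same order, that fit called 14120, 5759, 14226, 5067 and 12113 of all genes tested. Leaving out a library leaves its group with 1, which is assumed to vary like the others. With 2 libraries a group and counts of 0 to 94 outside Pdcd1, depth limits Pdcd1lg2, Ctla4 and Tigit.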

Other observations

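A further pair of genes whose products meet on immune cells, Cd244a and its ligand gene Cd48, stood out after the values were seen. Cd244a, a receptor of NK and T cells, had 0 counts in both vehicle naive libraries and both libraries labelled MRX-2843 tumor, 4 and 0 counts in MRX-2843 naive, and 6.17 and 7.33 CPM in vehicle tumor. That is at least 154-fold higher in vehicle tumor than in vehicle naive and at least 131-fold higher than in MRX-2843 tumor. Cd244a passed the filter on low counts only through vehicle tumor. Cd48 was at 1.18 and 0.551 CPM in vehicle naive, 18.1 and 20.7 in vehicle tumor, 0.923 and 0.993 in MRX-2843 naive, and 0.738 and 0.742 in MRX-2843 tumor.

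Cd24a, the gene of a surface protein that like CD47 restrains phagocytes, did not follow Cd47. It was at 3.53 and 4.71 CPM in vehicle naive, 24.5 and 29.7 in vehicle tumor, 4.33 and 4.27 in MRX-2843 naive, and 15.1 and 11.2 in MRX-2843 tumor. The rise from naive brain was 2.72 ± 0.19 (log2, SE; adjusted p = 8.3e-09) under vehicle and 1.61 ± 0.19 (adjusted p = 2e-05) in the libraries labelled MRX-2843 tumor. Siglecg, the gene of its receptor, was at 0.971 and 0.953 CPM in vehicle tumor and did not pass against vehicle naive (adjusted p = 0.078). It passed with library totals (0.049), the stricter filter (0.035), only the 2 groups (0.039), counts halved (0.041) and without the second vehicle naive library (0.042).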
